A study of Triticum aestivum with 14 samples.

Results

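The leaf response to vernalization was described from 2 lists of accessible chromatin regions (ACRs), 1 from leaf of unvernalized plants with 128914 ACRs and 1 from vernalized leaf with 126351 ACRs. Together these were 255265 of the 892288 ACRs in the 6 lists of the series. An unvernalized ACR with no base in common with any vernalized ACR was counted as lost, a vernalized ACR with no base in common with any unvernalized ACR as gained, and an ACR with at least 1 bp of overlap as retained.

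All plants were the winter wheat (Triticum aestivum) cultivar AK58, which carries A, B and D sub-genomes. Unvernalized plants had grown for 2 weeks. Vernalized plants had been kept at 4°C for 1 month and then in a greenhouse for 1 day, so they were also older, and the effects of cold and of plant age cannot be told apart. The series held 14 samples in 7 groups of 2 (leaf, axillary bud and shoot apex in both conditions, and input), and 1 list was analysed here for each tissue and condition. Nuclei had been stained with DAPI and selected by flow cytometry. The lists hold positions only, without the depth behind an ACR. By the read totals that accompany the study, both vernalized leaf libraries were sequenced more deeply than both unvernalized ones, and the part of depth in the differences between the leaf lists was not tested. The leaf label could not be checked against marker genes, and no sequence is shown because no genome of the build used was at hand. With 1 list per group there is no replicate spread and no p-value, so all differences given are differences between lists. Shares are given with 95% Wilson intervals for the counting error, which treat ACRs as independent although neighbours are not.

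Vernalization is the long cold exposure after which winter cereals become able to flower. In wheat, VRN1 is induced during cold and VRN2, a repressor of flowering, is turned down, after which VRN3, the wheat counterpart of the mobile flowering signal FT, is expressed in leaf and acts at the shoot apex. In ATAC-seq the transposase Tn5 inserts adapters into DNA that is not covered by nucleosomes, and promoters and enhancers in use are typically found among such open regions. Wheat chromosomes are gene-rich towards their ends, while their interior, which includes the centromere, is gene-poor and rich in transposable elements. The positions of these genes and of centromeres on the build used were not analysed here.

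About as many ACRs were lost as gained. Vernalization was accompanied by the loss of 64464 leaf ACRs, or 50% of the unvernalized list, and by the gain of 60850, or 48.2% of the vernalized list. The same rule called 23.6% of ACRs lost and 17.9% gained in axillary bud, and 32.5% lost and 44.2% gained in shoot apex. The retained ACRs numbered 64450 in unvernalized leaf (49.99%, 49.7% to 50.3%) and 65501 in vernalized leaf (51.8%, 51.6% to 52.1%). Few calls lay at the edge of the rule. Of the retained ACRs, 797 unvernalized and 791 vernalized ones were held by an overlap of 1 to 50 bp, while 684 lost and 698 gained ACRs ended 0 to 50 bp from an ACR of the other condition. With a reciprocal overlap of at least 50% as the rule, however, 29.7% and 30.3% were retained, and with ACRs of at least 500 bp in both lists 27835 were lost and 20254 gained.

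Lost and gained ACRs lay at similar distances from the nearest ACR of the other condition. The median distance was 6243 bp for lost and 6828 bp for gained ACRs. Within 1 kb lay 20.95% and 20.97% of them, and within 10 kb 57.7% and 55.8%. In the chromosome interior, defined below, the distances separated, with a median of 6875 bp for lost and 13565 bp for gained ACRs. Gained ACRs there were thus set further from the accessible regions of unvernalized leaf than lost ACRs were from those of vernalized leaf. The unvernalized list was also the sparser one there, at 5.225 ACRs per Mb against 6.714. The part of this density in the distances was not tested.

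The covered length was 79.9 Mb in leaf and 71.6 Mb in vernalized leaf, a difference of -8.29 Mb. Lost and gained ACRs on the one hand and retained ACRs on the other contributed in nearly equal parts. Lost ACRs covered 27.7 Mb and gained ACRs 23.6 Mb, a difference of -4.07 Mb. Retained ACRs accounted for -4.22 Mb, or 50.9% of the difference, with 52.2 Mb before and 47.99 Mb after vernalization. Of these retained lengths 36.4 Mb were the same bases, which is 69.75% of the unvernalized and 75.9% of the vernalized retained length.

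Width was closely tied to retention. Among the narrowest unvernalized ACRs, of 201 to 250 bp, 25.4% (24.9% to 25.9%) were retained, and the share was larger in each wider class up to 91.3% (90.3% to 92.2%) of those over 2000 bp. In vernalized leaf the share went from 28.6% (28.2% to 29.1%) to 96.0% (95.2% to 96.7%) over the same classes. The narrowest class held 33.4% of lost and 42.5% of gained ACRs, against 11.4% and 15.8% of the retained ACRs of the unvernalized and vernalized lists. It was also the only one of the 9 width classes with more ACRs after vernalization, 36192 against 28853 (25.4% more). The number of ACRs over 2000 bp was 3680 before and 2728 after vernalization (-25.9%). The share of ACRs whose width is a whole number of the 150 bp bins in steps of 100 bp, with which the lists had been made, was 33.9% before and 42.6% after vernalization. Its part in the widths was not tested.

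**Figure D1:**
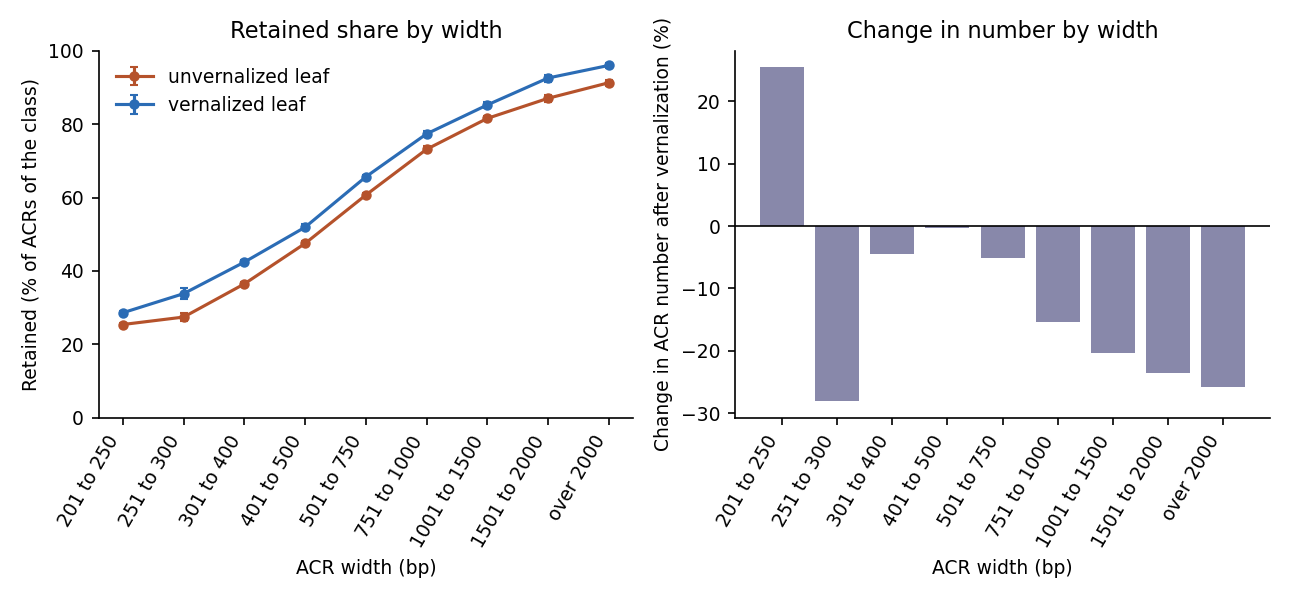
Left, share of leaf ACRs retained in each width class (bp), in percent of the class, with 95% Wilson intervals, for the unvernalized and the vernalized list. Right, change in the number of ACRs of each class from unvernalized to vernalized leaf in percent. The share retained was larger in each wider class, from 25.4% to 91.3% in unvernalized leaf, and only the class of 201 to 250 bp held more ACRs after vernalization.

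The ratio of gained to lost ACRs differed between the sub-genomes. For every 100 ACRs lost, 84.8 were gained on A (83.1 to 86.5), 94.8 on B (92.9 to 96.6) and 103.7 on D (101.8 to 105.6). These intervals did not overlap, but they treat ACRs as independent. By single chromosome, A and B overlapped (93.2 on 6A, 86.0 on 6B), as did B and D (102.2 on 4B, 94.1 on 2D). A and D did not. The A sub-genome held 43290 ACRs before and 40308 after vernalization (-6.89%), the B sub-genome 41490 and 40670 (-1.98%), and the D sub-genome 44134 and 45373 (2.81% more). Lost ACRs were spread much like the unvernalized list, with 33.8% on A, 32.5% on B and 33.7% on D against 33.6%, 32.2% and 34.2%. The D sub-genome held 37.0% of gained ACRs, against 35.9% of the vernalized list. Its shares of lost and gained ACRs differed by 3.32 percentage points, and by 1.01 with ACRs of at least 500 bp in both lists. The ratio of gained to lost was lowest on the A member in 6 of the 7 homoeologous groups and highest on the D member in 5. In vernalized leaf the retained share was highest on the A member in 7 of the 7 groups, and was 54.2% for A (53.7% to 54.6%), 51.2% for B (50.75% to 51.7%) and 50.3% for D (49.9% to 50.8%). In unvernalized leaf the sub-genomes were closer, at 49.7% (49.2% to 50.1%), 49.6% (49.1% to 50.03%) and 50.7% (50.3% to 51.2%), with the D member highest in 4 groups.

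Single chromosomes spanned a wider range than the sub-genomes. Chromosome 1D gained 121.6 ACRs per 100 lost and went from 5859 to 6491 ACRs, 10.8% more. Chromosome 4D gained 119.6 per 100 lost and went from 5076 to 5599, 10.3% more, and 6D gained 110.6 and went from 5174 to 5485, 6.01% more. At the other end 2A gained 81.3 per 100 lost and went from 7423 to 6785 (-8.59%), followed by 3A with 82.2 (6872 to 6287, -8.51%). Over the 21 chromosomes the vernalized list was longer on 7, namely 1D, 4B, 4D, 5B, 5D, 6D and 7B. The retained share of unvernalized ACRs varied less, from 47.7% (46.5% to 49.0%) on 6B to 53.1% (51.7% to 54.5%) on 4D.

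A larger contrast was found along the chromosomes. The outer zone was taken as the first and the last 0.1 of each chromosome (20% of the length), the interior as the stretch between 0.30 and 0.60 of its length (30%), and the rest as intermediate (50%). Interior ACRs numbered 22047 in leaf and 28331 in vernalized leaf, 28.5% more. The outer zone held 46401 and 43930 ACRs (-5.33%) and the intermediate zone 60466 and 54090 (-10.5%). Per 100 lost ACRs, 164.6 (160.6 to 168.8) were gained in the interior, 77.8 (76.5 to 79.1) in the intermediate zone and 86.6 (85.0 to 88.3) in the outer zone. The interior held 15.5% (15.2% to 15.8%) of lost and 26.99% (26.6% to 27.3%) of gained ACRs. It held 17.1% of all unvernalized and 22.4% of all vernalized ACRs. The outer zone held 35.9% of lost and 32.9% of gained ACRs, against 35.99% of all unvernalized and 34.8% of all vernalized ACRs. Its share of lost ACRs was thus close to its share of the list. The difference of -2.95 percentage points between gained and lost was -0.514 with ACRs of at least 500 bp in both lists. That value lay within its counting error of 0.864.

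Both kinds of turnover contributed to the surplus in the interior. Unvernalized ACRs were lost less often there, since 54.7% were retained against 50.2% in the outer and 48.1% in the intermediate zone. Vernalized ACRs, in turn, were more often new, and 42.0% were retained against 54.4% and 54.9%. At a resolution of 5% of the chromosome length, the ratio was highest between 0.35 and 0.40, where 220.8 ACRs were gained per 100 lost and the number went from 3289 to 4835. It was lowest between 0.65 and 0.70, with 66.3 per 100 and 5487 ACRs going to 4531. The density of gained ACRs reached 5.19 per Mb between 0.40 and 0.45, which was exceeded only in the first and in the last 3 of the 20 bins. Lost ACRs had a density of 2.44 per Mb in the same bin.

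**Figure D2:**
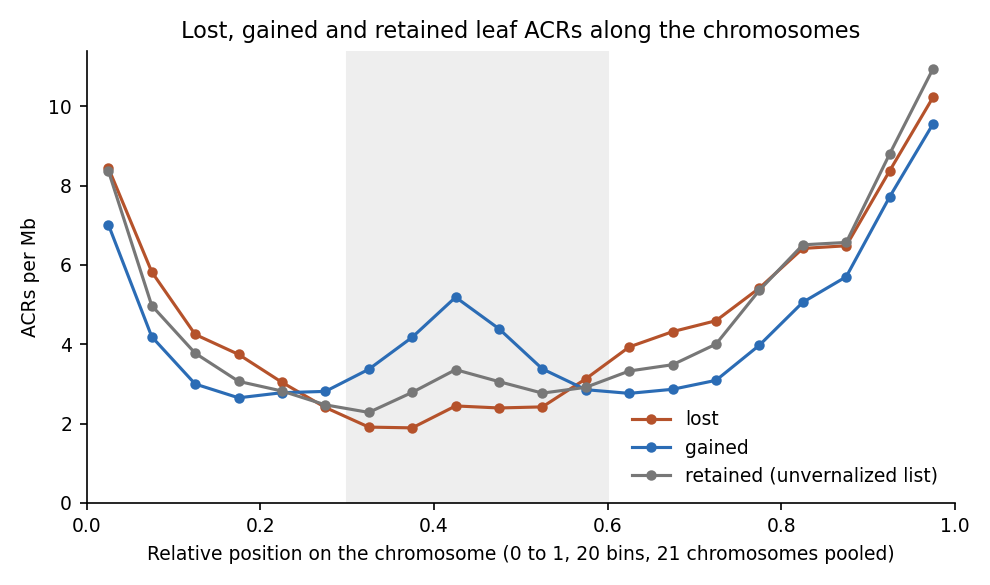
Density of lost, gained and retained leaf ACRs (ACRs per Mb, vertical axis) in 20 bins of relative position, with the 21 chromosomes pooled and the interior from 0.30 to 0.60 shaded. Densities were highest at the chromosome ends, and gained ACRs had a second peak of 5.19 per Mb in the interior, where 2.44 lost ACRs per Mb were found.

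The surplus was seen on nearly every chromosome. In the interior more ACRs were gained than lost on 20 of 21 chromosomes, and the exception was 5B, where 710 were gained and 778 lost (91.3 per 100, 82.4 to 101.0). The highest values were found on 4D and 6D. On 4D 744 ACRs were gained and 234 lost (317.9 per 100, 274.5 to 368.2), and on 6D 840 and 302 (278.1 per 100, 243.9 to 317.2). They were followed by 1D, with 1018 gained and 486 lost, and 6A, with 576 and 275, both at 209.5 per 100. Within each of the 7 homoeologous groups the D member had the highest interior ratio. Summed over chromosomes, the interior ratio was 149.3 for A (142.7 to 156.3), 143.7 for B (137.8 to 149.9) and 203.9 for D (195.5 to 212.8). In the intermediate zone D was also highest, with 69.0 for A (67.0 to 71.1), 74.9 for B (72.8 to 77.2) and 89.9 for D (87.4 to 92.5). In the outer zone the ratios were 80.99 for A, 98.1 for B and 82.4 for D, so that B was highest there.

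**Figure D3:**
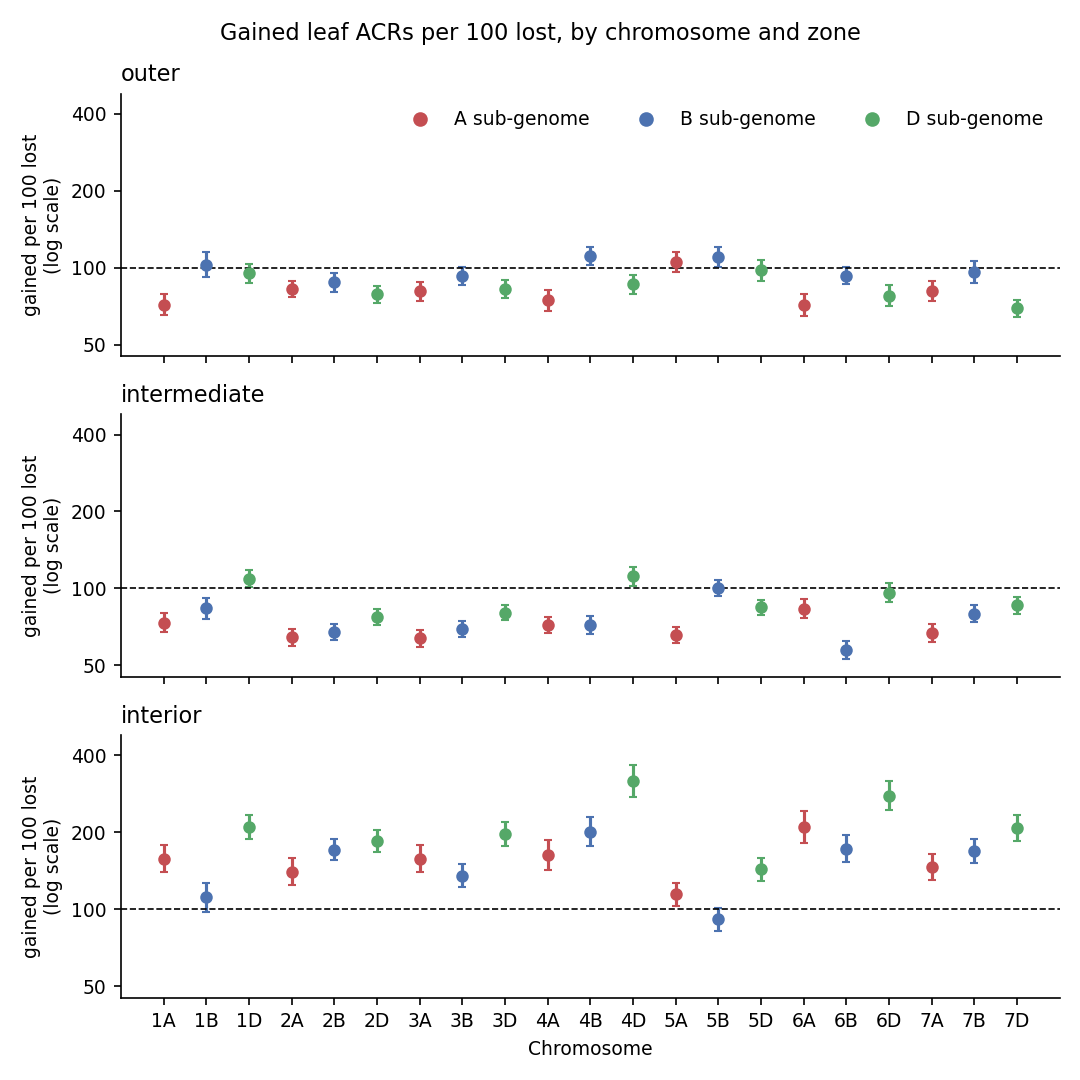
Gained leaf ACRs per 100 lost (log scale) on each of the 21 chromosomes in the outer, intermediate and interior zone, coloured by sub-genome, with 95% intervals for counting error. The dashed line marks 100, equal gain and loss. In the interior 20 of 21 chromosomes lay above the line, from 91.3 on 5B to 317.9 on 4D.

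The interior surplus was largest among narrow ACRs. The interior held 5274 ACRs of 201 to 250 bp in leaf and 9095 in vernalized leaf (72.45% more), 7880 and 9310 of 251 to 500 bp (18.1% more), 5948 and 6875 of 501 to 1000 bp (15.6% more) and 2945 and 3051 wider ones (3.60% more). In the outer and intermediate zones the numbers of the 3 wider classes were lower after vernalization, down to -20.7% and -31.4% for ACRs over 1000 bp.

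The other tissues did not show the same change of position. In axillary bud the interior went from 28231 to 24123 ACRs (-14.6%) and the outer zone from 61738 to 69156 (12.0% more). In shoot apex the number was higher in the interior (16492 to 20399, 23.7% more), but also in the intermediate zone (31.3% more) and in the outer zone (1.72% more). Per 100 lost ACRs, shoot apex gained 173.6 in the interior, above the 164.6 of leaf, but 222.3 in the intermediate zone and 110.0 in the outer zone. In axillary bud these values were 30.3, 55.1 and 145.5. The interior share of ACRs differed between vernalized and unvernalized lists by 5.32 percentage points in leaf, whereas this was -2.22 in axillary bud and 0.763 in shoot apex. Since each tissue had 1 list per condition, the difference between tissues was not tested.

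To locate the surplus more closely, the 20 Mb stretch with the largest excess of gained over lost ACRs was taken on each chromosome. As the stretches were chosen for this excess, their leaf values are a description. The middle of the stretch lay in the interior on 18 of 21 chromosomes, and near a chromosome end on 2A, 5A and 5B. On 1D, from 156 to 176 Mb, the number of ACRs was 107 in leaf and 349 in vernalized leaf. On 3D, from 222 to 242 Mb, it was 86 and 269, and on 7D, from 324 to 344 Mb, 88 and 264. These 3 stretches had 3 times as many ACRs or more after vernalization. The excess of gained over lost was 136 to 246 on D chromosomes and 70 to 134 on A and B chromosomes, so these ranges did not overlap. This excess is a count and is the value by which the stretches were chosen. The ratio of vernalized to unvernalized ACRs did overlap between them, with 2.69 on 6A and 2.01 on 5D.

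The 4 lists that had no part in this choice did not show this difference. Over the 21 stretches together, leaf had 3321 and vernalized leaf 6023 ACRs (81.4% more). Axillary bud had 3743 and 3748 (0.134% more), and shoot apex 3875 and 3610 (-6.84%). On the 1D stretch, for example, axillary bud had 89 before and 67 after vernalization and shoot apex 86 and 75. The vernalized list was the longer one in 4 stretches for axillary bud and in 3 for shoot apex. Of the ACRs gained in leaf on the 1D stretch, 6.78% overlapped an ACR of any other tissue.

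Lost and gained ACRs each tended to lie next to their own kind. When the lists were merged into 186029 regions, 34.7% were lost, 32.7% gained and 32.6% held retained ACRs. After a lost region the next one along the chromosome was lost in 43.6% of cases, and after a gained region it was gained in 40.8%. After a retained region, the next was retained in 36.7%. In the interior 43.7% of regions were gained, and 51.2% of regions after a gained one. Gained regions that followed each other were nevertheless far apart, with a median gap of 13196 bp, against 4585 bp between successive lost and 3317 bp between successive retained regions. Lost regions therefore lay in denser stretches than gained ones.

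Long runs of a single kind were found for both lost and gained regions. Runs of at least 5 regions numbered 1606 for lost, 1301 for gained and 808 for retained regions, and runs of at least 10 numbered 86, 86 and 8. The longest gained run lay on 3D from 232650854 to 233245564 (coordinates on IWGSC RefSeq v1.0, at 0.378 of the chromosome) and had 35 gained ACRs in 594711 bp, with none lost or retained between them. Axillary bud had no ACR there in either condition, shoot apex had 1 and vernalized shoot apex 0. The next longest were 26 ACRs on 1D from 171501318 to 172038507 and 26 on 4D from 206480009 to 207411732. The 4 lists of other tissues held 1 ACR in the first of these and 4 in the second. All 3 lay in the interior of D chromosomes, in stretches almost without ACRs in the other tissues.

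The longest lost runs had another character. They lay on 2A from 27554331 to 27946731 (20 ACRs), on 7A from 48016946 to 48622532 (20 ACRs) and on 2D from 6755278 to 6909923 (16 ACRs), all in the outer zone. Here the other tissues had ACRs in both conditions. In the run on 7A, axillary bud had 28 before and 20 after vernalization and shoot apex 13 and 15. In the run on 2D these were 19 and 12, and 5 and 7.

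Windows of 1 Mb gave the same picture at a fixed scale. Of 14074 windows, 5559 had more gained and 6272 more lost ACRs, and in the interior 56.2% had more gained and 26.7% more lost. The window with the largest excess of gained ACRs was 3D from 233000001 to 234000000, with 3 ACRs in leaf and 51 in vernalized leaf. None of the 3 unvernalized ACRs there was retained. The next were 1D from 171000001 to 172000000 (2 and 36) and 1D from 170000001 to 171000000 (9 and 40). The largest excess of lost ACRs was on 5A from 549000001 to 550000000, with 51 ACRs in leaf and 12 in vernalized leaf, where axillary bud had 45 and 43 and shoot apex 41 and 33. The windows that followed were 7A from 48000001 to 49000000 (46 and 11) and 7D from 4000001 to 5000000 (83 and 58).

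The lists of axillary bud and shoot apex, which were not used to define lost and gained ACRs, separated the classes clearly. Of the ACRs lost in leaf, 81.4% (81.1% to 81.7%) overlapped an ACR of at least 1 of the 4 other lists, and 36.6% an ACR of every one of them. Of the gained ACRs these shares were 34.1% (33.7% to 34.5%) and 7.28%. Retained ACRs were highest, with 88.8% (88.6% to 89.1%) in unvernalized and 89.8% (89.6% to 90.04%) in vernalized leaf. Gained ACRs were therefore mostly found in vernalized leaf alone (40097, or 65.9%), whereas lost ACRs were mostly regions that other tissues also had open.

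Lost leaf ACRs were found in the unvernalized and in the vernalized lists of the other tissues, although whether the same ACRs were found in both was not counted. They overlapped an ACR of axillary bud in 74.7% of cases and of vernalized axillary bud in 70.8%. In shoot apex the share was 44.6% before and 57.1% after vernalization. For gained ACRs, the shares were 23.4% and 21.2% for axillary bud and 18.5% and 15.3% for shoot apex. The vernalized lists of the other tissues thus did not hold more of the leaf gains than the unvernalized lists did. These lists also differed in covered length, with 169.2 Mb before and 143.3 Mb after vernalization in axillary bud and 88.55 and 107.7 Mb in shoot apex. The part of covered length in these shares was not tested.

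**Figure D4:**
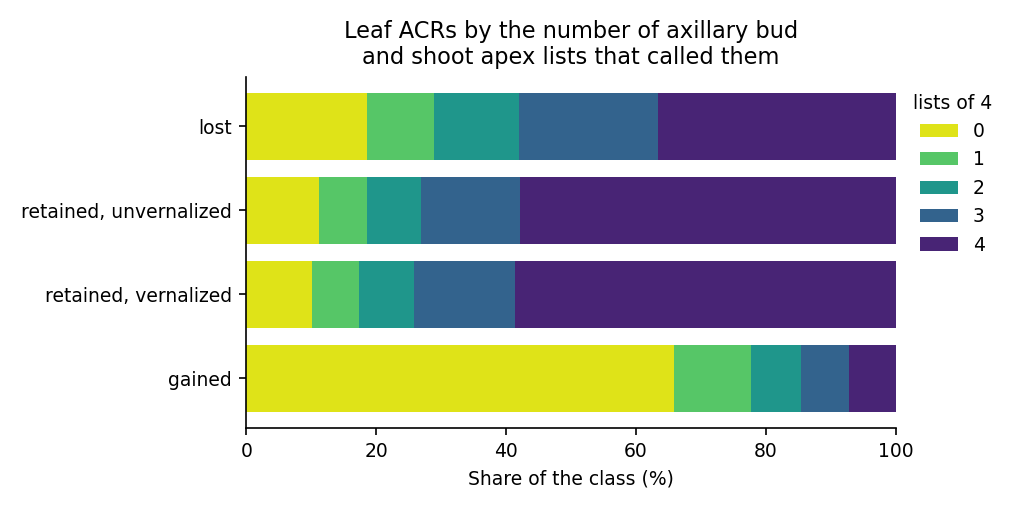
Lost, retained and gained leaf ACRs by the number of the 4 axillary bud and shoot apex lists that had an ACR at the same place (share of the class in percent, horizontal axis). No other list had an ACR at 65.9% of gained and 18.6% of lost ACRs, and all 4 had one at 7.28% and 36.6%.

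The contrast held on each chromosome, in each zone and in each width class. Over the 21 chromosomes, the share called elsewhere was 78.9% to 84.4% for lost and 31.4% to 37.1% for gained ACRs. In the interior it was 75.04% for lost and 22.9% for gained ACRs, and in the outer zone 82.0% and 41.6%. Among ACRs of 201 to 250 bp it was 72.8% for lost and 27.5% for gained ones, and among those of 1001 to 1500 bp 95.8% and 58.4%. Split by this property, 39.5 ACRs were gained per 100 lost among ACRs called in another tissue and 335.0 per 100 among those called in leaf alone. In the interior these values were 50.2 and 508.5. The surplus of gained over lost ACRs in the interior was thus made up of leaf-only ACRs, since there were fewer gained (3762) than lost (7487) ACRs among those called elsewhere. The same comparison within the other tissues had the opposite order. Of ACRs lost in axillary bud 42.9% were called in another tissue and of those gained 56.8%, and in shoot apex the shares were 65.5% and 80.6%.

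Widest among the lost ACRs with no vernalized leaf ACR within 1 kb were those on 2D from 448119413 to 448124110 (4698 bp), on 1B from 406035252 to 406039826 (4575 bp) and on 2D from 569306963 to 569311512 (4550 bp). All 4 other lists had at least 1 ACR at each of these. Their nearest vernalized leaf ACRs were 74488 bp, 10101 bp and 53827 bp away. The widest gained ACRs chosen alike lay on 2B from 779071336 to 779081185 (9850 bp) and within 6A from 435332198 to 435337549 (5352 bp), where no other list had an ACR, and on 1D from 408146732 to 408152081 (5350 bp), where both vernalized lists of the other tissues had 1 and the unvernalized lists 0.

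Retained ACRs were then compared in width. In 53716 cases a single unvernalized ACR overlapped a single vernalized ACR. In these pairs the median width was 597 bp before and 547 bp after vernalization, and the median of the differences, vernalized minus unvernalized, was -43.0 bp (middle 50% of pairs from -259.0 to 134.0 bp). With a reciprocal overlap of at least 50% it was -27.0 bp. In 55.99% of pairs the vernalized ACR was narrower and in 41.0% wider. It had at most 50% of the former width in 15.04% of pairs and at least 2 times that width in 9.86%. The median difference was -9 bp in the interior, -35.0 bp in the outer and -68.0 bp in the intermediate zone, and over chromosomes it was -69.0 to -23.0 bp. Narrowing was thus small compared with the spread between pairs and least in the interior. Among the 8758 pairs in which both widths were whole numbers of bins the median difference was 0 bp, with 49.0% narrower and 33.0% wider.

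The width difference varied with the number of other lists that overlapped the unvernalized ACR of a pair. Overlaps of the vernalized ACR were not used in this grouping. Grouping and difference thus share the unvernalized width, whose part in the order was not tested. That width had a median of 350 bp with no other list and 750 bp with all 4, against 501.5 and 550 bp for the vernalized ACR. Pairs with no other list (leaf-only pairs) were mostly wider after vernalization, with a median difference of 89.0 bp and 63.4% of pairs wider. The median was 53.0 bp where 1 of the other lists called the region, 9 bp with 2, -13.0 bp with 3 and -102.0 bp with 4, where 65.1% of pairs were narrower. Leaf-only pairs had medians of 55 to 103.5 bp over the 21 chromosomes and pairs called in all 4 lists -132.0 to -92.0 bp, so these ranges did not overlap. In classes of like mean width, leaf-only pairs again had the higher median. Mean width contains the unvernalized width, so these classes do not separate that width from the number of lists. For a mean width over 500 and up to 1000 bp the median difference was 204.0 bp in leaf-only pairs and -153.0 bp in pairs called in all 4 lists, and for 300 to 500 bp it was 82.0 and -97.0 bp. For 200 to 300 bp it was 4.5 and -20.0 bp, with 51.3% of leaf-only pairs wider. Grouped by the unvernalized ACR, leaf-only pairs were mostly wider and pairs called in all 4 other lists mostly narrower after vernalization. Pairs called in some of the lists lay in between.

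**Figure D5:**
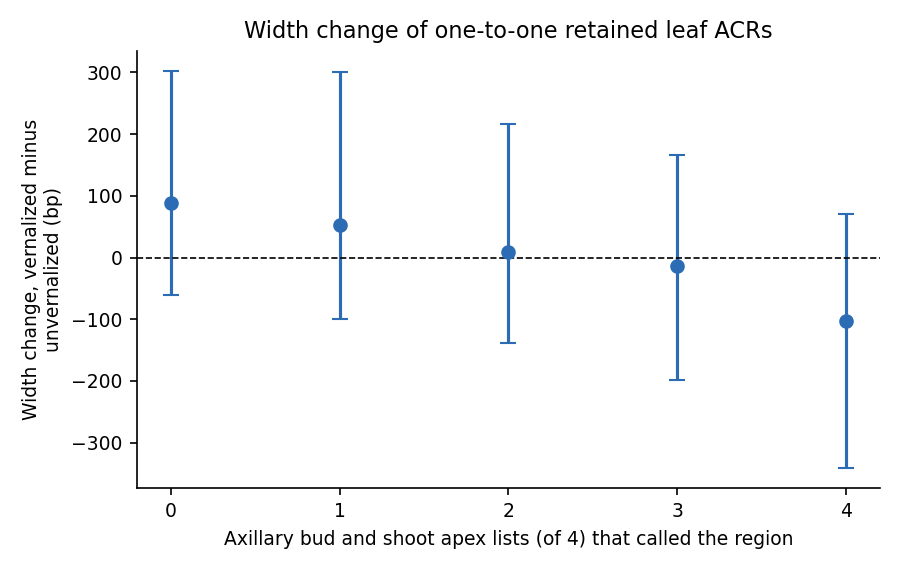
Width of the vernalized minus the unvernalized ACR (bp) in paired retained leaf ACRs. Pairs are grouped by how many of the 4 axillary bud and shoot apex lists overlapped the unvernalized ACR, whose width also enters the difference. Points are medians and bars span the middle 50% of pairs. The median went from 89.0 bp with no other list to -102.0 bp with all 4.

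The pair that widened most lay on 3D, from 489157945 to 489158475 (531 bp) in leaf and from 489157826 to 489168175 (10350 bp) in vernalized leaf, followed by 7A (450 to 6113 bp, from 482724117 to 482730229) and 3D (250 to 5678 bp, from 130945837 to 130951514). The pairs that narrowed most lay on 2B from 578137425 to 578143665 (6241 to 350 bp), again on 2B from 33347538 to 33353550 (6013 to 350 bp), and near the end of 2A from 709244913 to 709249751 (4839 to 220 bp). All 4 other lists had an ACR at each of the narrowed pairs, and also at the pair that widened most. At the widened 7A region only unvernalized axillary bud had 1. No other list had one at the second 3D region that widened.

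Splitting and joining concerned few ACRs and went both ways. Of the retained unvernalized ACRs 4181 (6.49%, 6.30% to 6.68%) overlapped 2 or more vernalized ACRs and were counted as split. Of the retained vernalized ACRs 3338 (5.10%, 4.93% to 5.27%) overlapped 2 or more unvernalized ones and were counted as joined. Over merged regions, 3684 held 1 unvernalized and several vernalized ACRs, 2858 the reverse, and 457 several of each. There were 1.29 split regions per joined region in leaf, against 3.09 for axillary bud and 0.583 for shoot apex. The split share was larger in wider ACRs, from 0.123% of ACRs of 201 to 250 bp to 46.7% of those over 2000 bp, and the joined share from 0.116% to 41.8%. The gaps between pieces were short, with medians of 285 bp for split and 263 bp for joined ACRs, close to the smallest gap within the lists of 151 bp.

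The most divided ACRs lay on 2D from 613340534 to 613348983 (8450 bp) and on 3D from 18792104 to 18800671 (8568 bp), each with 7 vernalized ACRs in its place. The 7 pieces covered 5085 bp in the first and 3599 bp in the second. In the other direction, a vernalized ACR of 19050 bp on 5D from 15058440 to 15077489 took the place of 7 unvernalized ACRs that covered 14116 bp, and 1 of 4149 bp on 1D from 6341610 to 6345758 that of 6 which covered 2111 bp.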

How the data were processed

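ATAC-seq reads of wheat nuclei had been processed by the authors as their methods and processing notes describe. Reads were trimmed with fastp 0.21.0, aligned to IWGSC RefSeq v1.0 with Bowtie2 2.3.5.1, filtered on mapping quality with SAMtools 1.3.1 and freed of duplicates with Picard 2.16.0. Peaks from MACS2 2.2.6 were cut into 150 bp bins, bins were filtered on Tn5 insertion density, remaining bins were merged, and peaks overlapping input or chloroplast sequence were removed. The mapping quality filter removes reads mainly from repeated sequence, and ACR ends depend on which bins passed. Deposited were only positions (chromosome, start, end), with no score or count, and whether a list rests on 1 sample or on pooled samples is not given in the sources used here. Input was not analysed here, and read totals were used only for the comparison of depth between the leaf libraries given at the start.

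Both leaf lists were used whole. Printed starts count from 1. The last ACR end over the 6 lists stood for chromosome length, and an ACR was placed by its middle. Overlap, pairing, merging (1 bp) and Wilson intervals used Python 3.11.15 with numpy 2.4.6, pandas 2.3.3 and matplotlib 3.10.9, and overlap functions were tested on simulated data. Intervals of gained per 100 lost were derived from the Wilson interval of gained among gained and lost ACRs. Regions were named by rule: the 3 widest lost and gained ACRs isolated by 1 kb from the other condition, the 3 longest runs and 3 extreme 1 Mb windows of each direction, the 3 pairs that widened and narrowed most, and the 2 most divided and most joined ACRs. Members, measures and rules were chosen with earlier results of these data known. The 20 Mb stretches were added after seeing the data. Alternatives were other overlap rules, a minimum width of 500 bp, other zone limits, covered length and other sets of comparison lists. Gene annotation was not used here, since the table at hand belongs to another assembly.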

Additional observations from a re-analysis of the deposited data

Results flagged for a closer look

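Leaf and another tissue differed in the sign of their change from the unvernalized to the vernalized list in 5 measures, where a change in a share counted only if it was larger than its 95% counting error in both tissues. The B sub-genome share, at 0.00386 percentage points in leaf, -0.453 for axillary bud and -0.521 for shoot apex, was therefore left out. With 1 list per tissue and condition none of these differences was tested. The number of ACRs was -1.99% in leaf and 16.5% in shoot apex, and the covered length -10.4% and 21.6%. The A sub-genome share differed by -1.68 percentage points in leaf and by 0.352 in shoot apex. Against axillary bud, the share in the outer zone was -1.23 percentage points in leaf and 4.57 in axillary bud, and the share in the interior 5.32 and -2.22. The share of ACR widths that were a whole number of bins also differed between the lists, at 33.9% and 42.6% in leaf, 94.6% and 95.6% in axillary bud and 12.9% and 77.6% in shoot apex (unvernalized first). Its part in these differences was not tested.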

How the results depend on the processing

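No paired analysis was possible because each tissue and condition had 1 list, and leaving out a replicate was not possible for the same reason. Of 45 alternatives for 12 values, 1 turned the sign and 8 stayed within counting error or, for counts, within 1.5 times. The number of leaf ACRs was 0.553% higher after vernalization once ACRs up to 1000 bp apart were joined, against -1.99% as listed, -13.0% among ACRs of at least 500 bp and -10.4% by covered length. A reciprocal overlap of at least 50% gave retained shares of 29.7% and 30.3% (unvernalized first), gained minus lost shares of 2.40 percentage points for D, 7.62 for the interior and -1.76 for the outer zone, and a median width difference of -27.0 bp. The split share was then 0%, because 2 separate ACRs cannot each meet that rule with 1 ACR. Counting ACRs up to 200 bp apart as retained gave 52.3% and 54.2%, and 12.1 points for the interior. With ACRs of at least 500 bp in both lists, 58.1% of vernalized ACRs were retained, 27835 were lost and 20254 gained, the shares differed by 1.01 (D), 10.6 (interior) and -0.514 points (outer), the median width difference was -49.0 bp and 4.535% were split. An ACR overlapped only by narrower ones then counts as lost. Set against all ACRs of the other list, an alternative added after seeing the data, ACRs of at least 500 bp had retained shares of 71.4% and 75.04%, 15911 lost, 12070 gained, and differences of 2.07 (D), 13.3 (interior) and -1.20 points (outer). Interior limits of 0.25 to 0.55 and 0.35 to 0.65 gave 12.25 and 8.605 points, an outer zone of 0.05 at each end -1.22 points, and shares of covered length 2.74 (D), 12.3 (interior) and -2.345 points (outer), against 3.32, 11.5 and -2.95. With only the 2 other lists of the same condition, 77.3% of lost and 24.2% of gained ACRs were called in another tissue, and 32.1% of gained ACRs more than 200 bp from an unvernalized ACR were. The order of lost and gained ACRs in this measure was the same under these alternatives. The lists give no depth for an ACR, so whether an ACR missing from a list was closed or below the calling limit was not tested.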
